A study of Mus musculus with 7 samples.

Results

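The genes described are nuclear genes for subunits of the mitochondrial respiratory chain and of ATP synthase. They were read in brown fat of newborn mice labelled wild type or knockout for glycerol kinase. A list of 58 genes was drawn up by protein complex: 19 of complex I, 4 of complex II, 6 of complex III, cytochrome c, 14 of complex IV and 14 of ATP synthase. Each gene was read through a probe set (a group of short oligonucleotides on the array that together give 1 signal), taking among those paired with 1 gene symbol the one with the highest mean signal over all arrays. This gave a value for 57 of the 58 genes, of 18193 genes in all with such a probe set. Cox7b was not analysed here, and Atp5f1 was matched under its newer symbol Atp5pb. Ndufa4 is counted with complex IV, of which it is now known to be a subunit.

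The respiratory chain passes electrons from NADH through complex I, and from succinate through complex II, to ubiquinone, then through complex III and cytochrome c to complex IV, which reduces oxygen to water. Complexes I, III and IV pump protons out of the mitochondrial matrix, and ATP synthase lets them flow back to make ATP. Brown fat is known for its many mitochondria, for the uncoupling protein Ucp1, which returns protons without making ATP and so gives heat, and for little ATP synthase relative to its respiratory chain. Atp5g1, 1 of the genes for the c subunit of ATP synthase, has been described as expressed at a low level in this tissue and as limiting for the enzyme.

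Total RNA of brown fat had been taken from C57BL/6J mice 3 days old, all labelled male, either wild type (n = 3, replicates 1, 3 and 4) or labelled knockout (KO, n = 4, replicates 1 to 4) for Gyk, the gene of glycerol kinase, which makes glycerol 3-phosphate from glycerol. The wild-type samples were the control group. The labels name no other allele, treatment, diet or housing temperature, and do not say how the knockout was made, whether litters were shared or whether each sample is 1 animal. Each sample was read on 1 array, and the 7 arrays, rather than counts, limit the precision.

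The arrays had medians of 131.5 to 154 signal units. The targeted gene is not analysed here, so each genotype rests on its label. The array labelled KO replicate 2 stood apart from the other KO arrays: it scored -13.8 on the first principal component, where KO replicates 1, 3 and 4 scored 33.4 to 35.7 and wild type -33.3 to -23.0, and it gave a signal of 2757 for Xist, which coats the inactive X chromosome, against at most 273 on the other arrays, which goes against its label as male. The samples were also deposited in 2 runs of accession numbers, here called deposit blocks: the first holds wild-type replicate 1 with KO replicates 1 and 2, the second wild-type replicates 3 and 4 with KO replicates 3 and 4. Results are therefore also given without KO replicate 2 and within the deposit blocks. The brown adipocyte markers, Ucp1 and Cidea among them, summed to signals between 63978 and 82217 on all 7 arrays, and 0 of the 9 measured markers changed.

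No respiratory chain or ATP synthase subunit passed the test. By limma with Benjamini-Hochberg adjustment, 0 of the 57 subunits had an adjusted p under 0.05, where 1.59% of the 27022 probe sets tested passed. At an unadjusted p under 0.05 the count was also 0, against 16.5% of all probe sets tested. The wild-type and KO arrays overlapped for every one of the 57 subunits, whereas they did not overlap for 14.7% of all probe sets tested (7.48% higher and 7.25% lower in KO). Differences are given as KO minus wild type on a log2 scale with an offset of 30.6 signal units added, with their standard error (SE), and 40 subunits lay above 0 and 17 below. The median was 0.04, beside 0.00 over all probe sets tested and 0.06 over the 712 other tested probe sets with a mean log2 value of at least 13. Under quantile normalization the median of the subunits was -0.03, so the side of 0 on which they lay depended on the scaling. The lowest difference was -0.41, of the ATP synthase gene Atp5g1, and the highest 0.15, of the complex IV gene Cox7c. The RNA came from whole tissue, in which fewer cells of a type and less RNA per cell cannot be told apart.

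The intervals bound how large a difference could have gone unseen. The 95% interval of the difference lay within 0.5 on the log2 scale either way for 53 of the 57 subunits, and within 1 for all 57. The lowest bound was -0.89, of Cox6a2, and the highest 0.57, of Cox7c. The mean signal was over 5000 for 54 subunits, and their differences ran from -0.22 to 0.14 with intervals between -0.50 and 0.43. The other 3 were Cox7c, Cox6a2 and Atp5g1. The median residual SD of the 57 subunits was 0.149 on the log2 scale, against 0.230 over all probe sets tested. Member signals reached 37494, near the highest signals on the arrays (31036 to 40460). Whether differences are compressed at such signals was not tested.

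**Figure D1:**
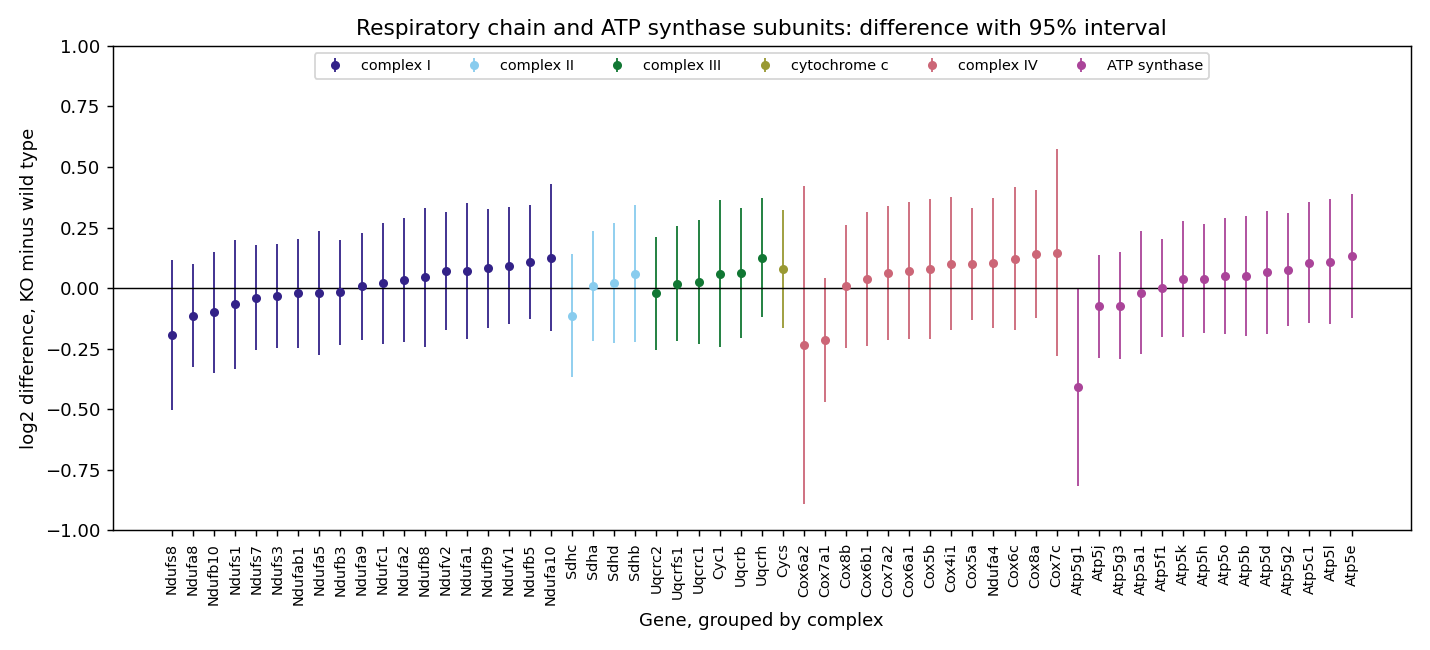
Difference between KO (n = 4) and wild type (n = 3) on the log2 scale for each of the 57 subunits, grouped by complex, with points for the estimate and bars for its 95% interval. All but Atp5g1 lie within 0.25 of the zero line, and the bars of Cox6a2, Atp5g1 and Cox7c are the widest.

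Complex I, which takes electrons from NADH, was measured with 19 genes, 10 above and 9 below 0, with a mean difference of 0.003, a median of 0.01 and a range of -0.19 to 0.13. Signals are given in the order wild-type replicates 1, 3 and 4, then KO replicates 1, 2, 3 and 4. Ndufs8, an iron-sulphur subunit of the arm that reaches into the matrix, gave 23385, 17678 and 24755 in wild type and 21900.5, 16062, 19423 and 19002 in KO. The signals of KO replicate 2 and wild-type replicate 3 were the lowest, and those of 2 wild-type arrays were above every KO array. Its means were 21939 ± 3754 (SD, n = 3) in wild type and 19097 ± 2394 (SD, n = 4) in KO, a difference of -0.19 ± 0.14 (SE) with an adjusted p of 0.552 and an interval of -0.50 to 0.12. Its other probe sets read -0.04, 0.23, 0.05, 0.07 and 0.04, of which the 0.23 came from a dim probe set (mean signal 879). The mean of all 6 gave 0.03, so the direction depended on the probe sets used.

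Ndufa8, an accessory subunit that binds on the intermembrane side, gave 15913, 13662 and 14135 in wild type and 13297, 12661, 13874 and 13949 in KO. Wild-type replicate 1 was the highest array and the others lay close together, with a difference of -0.11 ± 0.10 (SE, adjusted p = 0.623). Ndufb5, an accessory subunit of the membrane arm, gave 19253, 18059 and 18832 in wild type and 19648, 17509, 22599.9 and 21332 in KO. KO replicate 2 was the lowest and KO replicate 3 the highest, so that the KO arrays lay on both sides of wild type, with a difference of 0.11 ± 0.11 (SE, adjusted p = 0.684). Ndufv1, which binds NADH and flavin, had a difference of 0.09 ± 0.11 (SE), and Ndufs1, the largest iron-sulphur subunit, one of -0.07 ± 0.12 (SE). Ndufa10 differed most upwards in complex I, at 0.13 ± 0.14 (SE). Its second probe set, a dim one (mean signal 760), read -0.59 with an adjusted p of 0.0746 (limma), so the probe sets of this gene disagreed in direction.

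Complex II, succinate dehydrogenase, joins the citric acid cycle to the chain and pumps no protons. Its 4 subunits had a mean difference of -0.005 and ran from -0.11 to 0.06. Sdhc, 1 of the membrane anchors, gave 13925, 10997 and 12715 in wild type and 12719, 12237, 10701 and 10657 in KO. KO replicates 3 and 4 were the lowest arrays, but only just below wild-type replicate 3. The difference was -0.11 ± 0.11 (SE, adjusted p = 0.695). Sdhd, the other anchor, gave 19602, 16866 and 19167 in wild type and 18484, 16441, 19044 and 21559.8 in KO, with the lowest and the highest array both KO and a difference of 0.02 ± 0.11 (SE, adjusted p = 0.951). Sdhb, the iron-sulphur subunit, gave 23759, 21708 and 26167 in wild type and 22951, 21142, 26504 and 29485 in KO, again with KO at both ends and a difference of 0.06 ± 0.13 (SE, adjusted p = 0.872). The flavoprotein Sdha, which oxidises succinate, had means of 18541 ± 1077 (SD, n = 3) in wild type and 18702 ± 1738 (SD, n = 4) in KO and a difference of 0.01 ± 0.10 (SE). Under quantile normalization the differences of Sdhb and Sdhd had the opposite sign, at -0.03 and -0.07.

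Complex III passes electrons from ubiquinol to cytochrome c. Of its 6 genes 5 were above 0 and 1 below, with a mean of 0.045 and a range of -0.02 to 0.13. Uqcrh, the hinge protein that helps cytochrome c1 meet cytochrome c, gave 24319, 19387 and 22394 in wild type and 24508, 21088, 24894 and 25494 in KO. Wild-type replicate 3 was the lowest array, and 3 KO arrays were above every wild-type array. Its means were 22033 ± 2485 (SD, n = 3) in wild type and 23996 ± 1981 (SD, n = 4) in KO, with a difference of 0.13 ± 0.11 (SE, adjusted p = 0.646). Uqcrb, a small subunit near the ubiquinone site, gave 30674, 27952 and 32188 in wild type and 29035, 27354, 33281 and 37494 in KO, the last being the highest signal of any of the 57 subunits. The difference was 0.06 ± 0.12 (SE, adjusted p = 0.859). Cyc1, cytochrome c1 itself, gave 23656, 23136 and 27592 in wild type and 23371, 22030.5, 26390.2 and 32424 in KO, with KO replicate 4 above and KO replicate 2 below all wild-type arrays and a difference of 0.06 ± 0.14 (SE, adjusted p = 0.881). The core protein Uqcrc1 had a difference of 0.03 ± 0.12 (SE) and the Rieske iron-sulphur protein Uqcrfs1 one of 0.02 ± 0.11 (SE).

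Cycs, the cytochrome c that shuttles between complexes III and IV, gave 26288, 25812 and 28362 in wild type and 27921, 24265, 29456 and 32248 in KO. Its lowest and its highest array were KO replicates 2 and 4. The means were 26821 ± 1356 (SD, n = 3) in wild type and 28472 ± 3328 (SD, n = 4) in KO, a difference of 0.08 ± 0.11 (SE) with an adjusted p of 0.791 and an interval of -0.17 to 0.32.

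Complex IV, cytochrome c oxidase, was measured with 13 of its 14 listed genes, 11 above and 2 below 0, with a mean of 0.04 and a range of -0.23 to 0.15. Both genes below 0, Cox6a2 and Cox7a1, encode tissue-restricted isoforms. Cox6a2, Cox7a1 and Cox8b are the isoforms known from heart and skeletal muscle, the last 2 also from brown fat, and Cox6a1, Cox7a2 and Cox8a are their widely expressed partners. Of the common subunits, Cox5a, which binds on the matrix side, gave 24728, 22502 and 25417 in wild type and 25037, 23057, 28024 and 27989 in KO. KO replicates 3 and 4 were above every wild-type array and the others mixed with wild type, with a difference of 0.10 ± 0.10 (SE, adjusted p = 0.703). Cox4i1, the main isoform of the subunit through which ATP regulates the enzyme, had means of 28898 ± 1883 (SD, n = 3) in wild type and 31186 ± 4736 (SD, n = 4) in KO and a difference of 0.10 ± 0.12 (SE). Cox7c had the highest difference of the 57, 0.15 ± 0.19 (SE, adjusted p = 0.776), from signals of 319, 483 and 295 in wild type and 337, 427, 362 and 486 in KO, which overlapped throughout. These were the dimmest signals of complex IV, and its second probe set averaged 101. How well either probe set reports the Cox7c transcript was not tested.

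Cox7a1 gave 20486, 15424 and 19789 in wild type and 17181, 15318, 15645 and 15379 in KO. All 4 KO arrays lay below wild-type replicates 1 and 4, while wild-type replicate 3 lay among them. The means were 18566 ± 2744 (SD, n = 3) in wild type and 15881 ± 878 (SD, n = 4) in KO, a difference of -0.22 ± 0.12 (SE) with an adjusted p of 0.394 and an interval of -0.47 to 0.04. It was -0.34 in the first deposit block and -0.17 in the second. Its partner Cox7a2 gave 29052, 27044 and 31297 in wild type and 28076, 25877, 32254 and 36327 in KO, with KO at both ends and a difference of 0.06 ± 0.13 (SE, adjusted p = 0.862).

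Cox6a2 gave 1591, 967 and 1020.1 in wild type and 1557, 1303, 748 and 613 in KO. The 3 arrays of the first deposit block, of both genotypes, were the 3 highest, and the KO arrays of the second block the lowest. The means were 1193 ± 346 (SD, n = 3) in wild type and 1055 ± 449 (SD, n = 4) in KO, a difference of -0.23 ± 0.30 (SE, adjusted p = 0.767, interval -0.89 to 0.42). Skeletal muscle markers moved with it: the 22 measured markers summed to 73404, 69626 and 64243 on the 3 arrays of the first block, in the order wild-type replicate 1 and KO replicates 1 and 2, and to 42872, 45633, 40914 and 34907 on wild-type replicates 3 and 4 and KO replicates 3 and 4. None of the 21 tested markers changed between the genotypes, and the part of muscle RNA in the signal of Cox6a2 was not tested. The 5 heart muscle markers summed to at most 307 on any array. Cox6a1 gave 26079, 24405 and 28498 in wild type and 25443, 23332, 29622 and 33165 in KO, a difference of 0.07 ± 0.13 (SE, adjusted p = 0.84).

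Cox8b gave 31208, 26884 and 32524 in wild type and 28361, 27022, 32051 and 34130.4 in KO. The arrays were mixed and the means nearly equal, 30205 ± 2951 (SD, n = 3) in wild type and 30391 ± 3277 (SD, n = 4) in KO, with a difference of 0.01 ± 0.11 (SE, adjusted p = 0.986). Cox8a gave 23583, 21089 and 23732 in wild type and 23244, 21532, 27380.5 and 28932 in KO. KO replicates 3 and 4 were above all wild-type arrays, and the difference was 0.14 ± 0.12 (SE, adjusted p = 0.63).

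Ratios between partners on the same array take out what both share with that array. Movement that differs between dim and bright probe sets stays in the ratio. Its part in the ratios of Cox6a2 and Atp5g1 to their brighter partners was not tested. For 6 pairs of isoform genes the log2 ratio was set relative to its wild-type mean and compared by a two-sided exact permutation test over the 35 ways of dealing out the arrays, whose smallest p is 0.0286, with Benjamini-Hochberg adjustment over the 6 pairs. None of the 6 passed, but a pair at that smallest p can pass only if at least 4 of the 6 reach it together, so the adjusted p says little here. A pair whose arrays are fully separated need not reach it, since the test is two-sided and compares means. The ratio of Cox8b to Cox8a was 0.00, -0.05 and 0.05 on the wild-type arrays and -0.12, -0.08, -0.18 and -0.16 on the KO arrays, so all 4 KO arrays lay below all 3 wild-type arrays. The difference was -0.13 ± 0.04 (SE, exact p = 0.0571, adjusted p = 0.171), and it was 0.00 when all tested probe sets of each gene were averaged. Among these, the other probe sets of Cox8a read 0.07 and, on a dim probe set (mean signal 196), -0.18. Cox7a1 to Cox7a2 differed by -0.28 ± 0.17 (SE, exact p = 0.229, adjusted p = 0.343) and Cox6a2 to Cox6a1 by -0.31 ± 0.53 (SE, exact p = 0.6, adjusted p = 0.6), both with overlapping arrays.

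**Figure D2:**
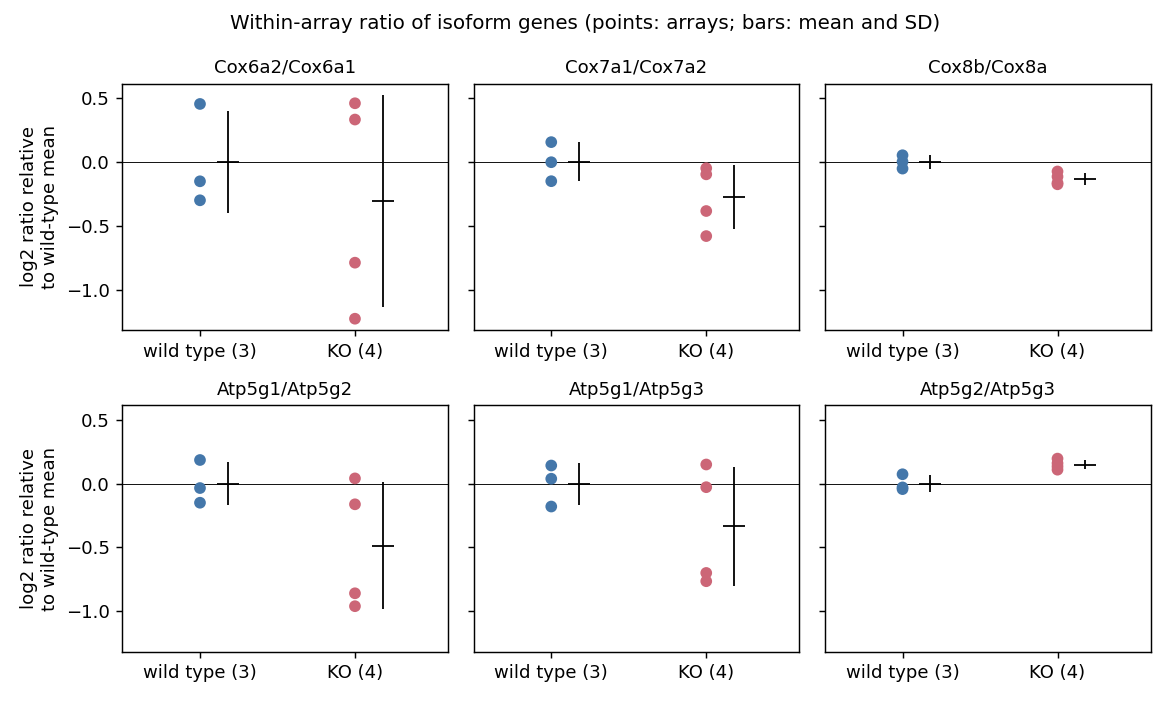
Log2 ratio of the signals of isoform genes within each array, relative to the wild-type mean, for 3 wild-type and 4 KO arrays, with points for arrays and bars for the mean and SD. The arrays of the genotypes do not overlap for Cox8b/Cox8a and Atp5g2/Atp5g3, by small amounts, while the ratios with Atp5g1 or Cox6a2 spread most widely among KO arrays.

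ATP synthase was measured with 14 genes, 10 above and 4 below 0, with a mean of 0.006 and a median of 0.04. Atp5g1, Atp5g2 and Atp5g3 encode the same mature c subunit, the ring that turns as protons pass, behind different mitochondrial targeting sequences. Atp5g1 gave 1467, 1281 and 1222 in wild type and 1182, 1289.8, 754 and 821 in KO. KO replicates 3 and 4 were clearly below all other arrays, and KO replicates 1 and 2 lay in or just below the wild-type range. The means were 1323 ± 128 (SD, n = 3) in wild type and 1012 ± 264 (SD, n = 4) in KO, a difference of -0.41 ± 0.19 (SE), the lowest of the 57 subunits, with an interval of -0.82 to 0.00, an unadjusted p of 0.0502 and an adjusted p of 0.304 (limma). It was -0.65 in the second deposit block (adjusted p = 0.0530), -0.24 in the first, and -0.53 without KO replicate 2 (adjusted p = 0.0895). With the replicate number as a block, it was -0.53 with an adjusted p of 0.0386, in a fit where 8.04% of all probe sets tested changed. Whether the difference itself varies between the blocks was not tested.

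Atp5g2 gave 12193, 12435 and 12865 in wild type and 12556, 11881, 13172 and 15326 in KO. KO replicate 4 was the highest and KO replicate 2 the lowest, with a difference of 0.08 ± 0.11 (SE, adjusted p = 0.791). Atp5g3 gave 21428, 20159 and 22397 in wild type and 19513, 18789, 20112 and 22816 in KO, with 3 KO arrays below all wild-type arrays and KO replicate 4 above them, and a difference of -0.07 ± 0.10 (SE, adjusted p = 0.787). The ratio of Atp5g2 to Atp5g3 was -0.04, 0.07 and -0.03 on the wild-type arrays and 0.13, 0.11, 0.16 and 0.20 on the KO arrays. Every KO array was above every wild-type array, a difference of 0.15 ± 0.04 (SE) at the smallest p the design allows (exact p = 0.0286), which the adjustment over the 6 pairs took to 0.171. The ratio of Atp5g1 to Atp5g2 differed by -0.48 ± 0.31 (SE, exact p = 0.229, adjusted p = 0.343) and that of Atp5g1 to Atp5g3 by -0.34 ± 0.29 (SE, exact p = 0.343, adjusted p = 0.411), with overlapping arrays.

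Atp5e, the epsilon subunit of the central stalk, had the highest difference of the 14 ATP synthase genes and gave 12934, 9443 and 10565 in wild type and 12129, 11153, 12053 and 12466 in KO, where wild-type replicate 1 was the highest array and wild-type replicates 3 and 4 the lowest. The difference was 0.13 ± 0.12 (SE, adjusted p = 0.64). Atp5c1, the gamma subunit that turns inside the catalytic head, gave 24708, 23049.5 and 25695 in wild type and 25043, 22874, 27555 and 30377 in KO. KO replicates 3 and 4 were the highest and KO replicate 2 the lowest, with a difference of 0.11 ± 0.11 (SE, adjusted p = 0.716). The catalytic beta subunit Atp5b had means of 25537 ± 1721 (SD, n = 3) in wild type and 26539 ± 3136 (SD, n = 4) in KO and a difference of 0.05 ± 0.11 (SE), and the alpha subunit Atp5a1 one of -0.02 ± 0.11 (SE).

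Promoters are shown for Cox8b with Cox8a and for Atp5g2 with Atp5g3, the isoform pairs whose ratios did not overlap between the genotypes, and for Atp5g1 as the third gene of the c subunit. Each sequence is the 250 bases before the gene's start, from RefSeq on GRCm38.p6, on the minus strand for all 5 genes and written 5′ to 3′ in the direction of transcription, with matches to the motifs searched in capitals. The windows are chr11:96075632-96075881 for Atp5g1, chr15:102671048-102671297 for Atp5g2, chr2:73911327-73911576 for Atp5g3, chr7:140900447-140900696 for Cox8b and chr19:7217617-7217866 for Cox8a.
Atp5g1: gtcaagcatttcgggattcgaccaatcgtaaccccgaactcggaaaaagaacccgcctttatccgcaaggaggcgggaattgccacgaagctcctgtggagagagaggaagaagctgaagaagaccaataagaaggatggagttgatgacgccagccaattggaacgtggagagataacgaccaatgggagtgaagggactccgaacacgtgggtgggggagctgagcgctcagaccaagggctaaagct
Atp5g2: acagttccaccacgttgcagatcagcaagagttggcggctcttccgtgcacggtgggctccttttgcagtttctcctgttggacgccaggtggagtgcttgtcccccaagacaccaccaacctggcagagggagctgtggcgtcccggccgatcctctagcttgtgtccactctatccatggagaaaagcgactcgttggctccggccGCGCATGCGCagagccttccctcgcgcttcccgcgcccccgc
Atp5g3: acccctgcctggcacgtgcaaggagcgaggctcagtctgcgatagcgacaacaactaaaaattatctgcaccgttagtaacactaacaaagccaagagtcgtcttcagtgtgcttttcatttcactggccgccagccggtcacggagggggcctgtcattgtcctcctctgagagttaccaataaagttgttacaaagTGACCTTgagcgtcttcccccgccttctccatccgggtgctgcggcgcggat
Cox8b: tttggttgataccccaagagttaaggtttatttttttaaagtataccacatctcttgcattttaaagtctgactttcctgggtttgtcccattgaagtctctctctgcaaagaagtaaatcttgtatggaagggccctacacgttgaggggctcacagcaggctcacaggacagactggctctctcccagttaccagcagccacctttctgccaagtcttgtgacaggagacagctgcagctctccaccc
Cox8a: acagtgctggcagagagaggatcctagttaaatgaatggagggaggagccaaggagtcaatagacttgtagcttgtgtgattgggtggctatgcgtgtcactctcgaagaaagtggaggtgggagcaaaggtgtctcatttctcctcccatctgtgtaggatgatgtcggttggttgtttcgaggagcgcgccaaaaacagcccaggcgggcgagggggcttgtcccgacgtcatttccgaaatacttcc
Capitals mark a match to the NRF1 motif in Atp5g2, starting 42 bases before the gene's start, and to the ERR motif on the opposite strand in Atp5g3, starting 52 bases before. The other 3 windows held no match to the 4 motifs searched. The Cox8b window held 1 CpG (a C followed by a G) and the Cox8a window 11, and those of Atp5g1, Atp5g2 and Atp5g3 held 15, 19 and 15.

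The 4 motifs are those of factors known to act on respiratory chain genes, searched on both strands: GCGCA and GCGC with any base between them for nuclear respiratory factor 1 (NRF1), CCGGAAG for the ETS family, to which NRF2 belongs, AAGGTCA for oestrogen-related receptors (ERR) and AAGATGGC for YY1. A window was found for 47 of the 58 listed genes and for 27025 genes in all. The NRF1 motif was in 9 of the 47 windows (19.1%), against 4.23% of all genes, and the ETS motif in 9 (19.1%), against 7.83%. The ERR motif was in 2 (4.26%, against 4.70% of all genes) and the YY1 motif in 1 (2.13%, against 1.83%). In all, 16 of the 47 held at least 1 of the 4 motifs, against 17.0% of all genes, and 31 held none. Sdhd, Cox6a1 and Atp5h held both NRF1 and ETS matches. A match is a description of the letters and not of a bound site. The median window of the subunits held 15 CpG and that of all genes 6. Only 2 of the 47 windows held fewer than 5, those of Cox8b with 1 and Cox7a1 with 4, where 42.4% of all genes did. Both are tissue-restricted isoforms of complex IV, and Cox6a2, also such an isoform, had no window.

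The subunits varied together across arrays more than between genotypes. The mean over the 57, relative to wild type, was 0.07, -0.12 and 0.04 on the wild-type arrays and -0.01, -0.11, 0.04 and 0.15 on the KO arrays, in the order above. Wild-type replicate 3 and KO replicate 2 were low and KO replicate 4 high, with an SD of 0.10 among wild-type and 0.11 among KO arrays against a difference of 0.02 between the genotypes. KO replicate 4 gave the highest of the 7 signals for 39 subunits and wild-type replicate 1 for 15, and KO replicate 2 gave the lowest for 31 and wild-type replicate 3 for 16. The 712 other tested probe sets with a mean log2 value of at least 13 moved alike, at 0.07, -0.09 and 0.02 on the wild-type arrays and 0.02, -0.06, 0.09 and 0.17 on the KO arrays. The mean over all probe sets tested stayed between -0.05 and 0.04 on every array. The part of signal brightness in the shared movement of the subunits was not tested.

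Within the deposit blocks the subunits lay on opposite sides of 0. In the second block (2 arrays of each genotype) 50 of the 57 were above 0 with a median of 0.18, and 0 changed, against 2.69% of all probe sets tested. In the first block (1 wild-type and 2 KO arrays, without a test) 55 were below 0, with a median of -0.13. The medians of all probe sets tested were -0.02 and 0.03 in these blocks. The 712 other bright probe sets moved the same way as the subunits. Their means in the second block were -0.09 and 0.02 on wild-type arrays and 0.09 and 0.17 on KO arrays. In the first block they were 0.07 on wild type and 0.02 and -0.06 on KO. With the block as a covariate 0 of the 57 changed, against 2.34% of all probe sets tested. Without KO replicate 2, 44 were above 0 with a median of 0.11, and 0 changed where 7.35% of all probe sets tested did.

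**Figure D3:**
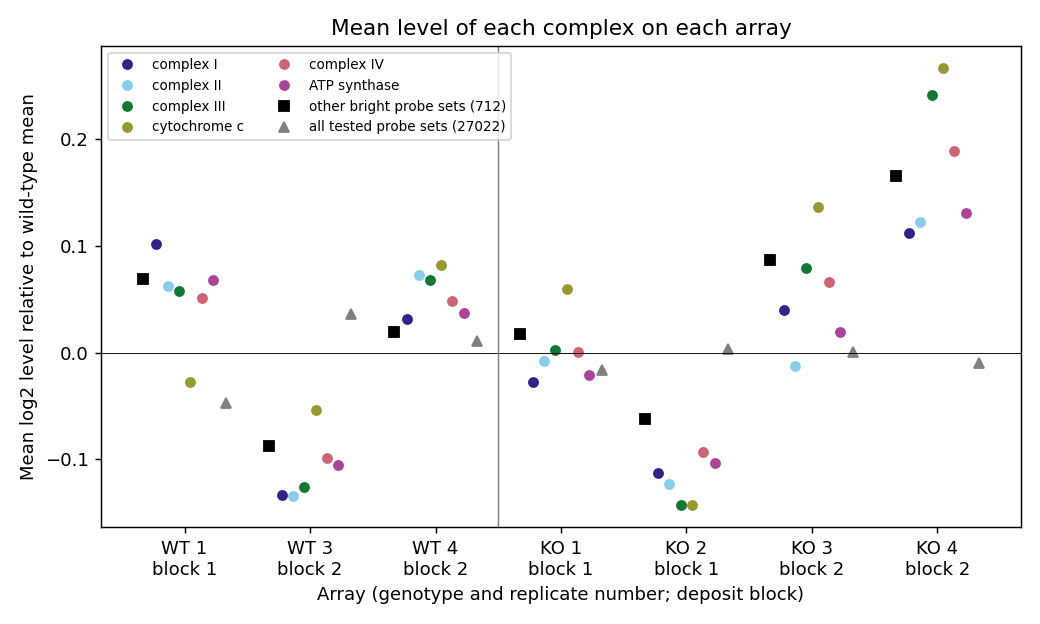
Mean log2 level of the subunits of each complex on each of the 7 arrays, relative to the wild-type mean, with 712 other bright probe sets as squares and all 27022 tested probe sets as triangles. The complexes move together, low on wild-type replicate 3 and KO replicate 2 and highest on KO replicate 4, and the other bright probe sets move with them.

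The 36 subunits with more than 1 probe set had 59 others, of which 53 were tested and 0 changed. At an unadjusted p under 0.05 there were 2, the probe set of Ndufa10 given above and 1 of Ndufab1, the mitochondrial acyl carrier protein, at 0.54 (limma, adjusted p = 0.119). That probe set of Ndufab1 was also dim (mean signal 303). The brightest probe set of Ndufab1 read -0.02 ± 0.10 (SE). For 9 of the 57 subunits the probe set's name carries an s or x, which marks oligonucleotides that can also match related transcripts, so their signals may be shared with copies of the gene.

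The genes around the subunits were taken from lists of the same pathway. Of 27 further respiratory chain and ATP synthase genes tested, 0 changed, with a median of 0.04. Of these 27, 4 had an unadjusted p under 0.05, as 16.5% of all probe sets tested had. These 4 were Atp5s, Atpif1 and Ndufa4l2, lower in KO by 0.54, 0.65 and 0.62, and Cox7a2l, higher by 0.27. The list of 27 holds mostly subunits, but includes the ATP synthase inhibitor Atpif1 and the coupling factor Atp5s. Of 44 assembly factors, which build the complexes without staying in them, 2 fell and 0 rose, where 0.644% of all probe sets tested fell. Their median was -0.09, with 31 below 0, and 13 of the 44 had an unadjusted p under 0.05, to be read against the same 16.5%. Of 76 mitochondrial ribosomal proteins, which translate the subunits encoded in mitochondrial DNA, 1 fell and 0 rose, beside the same 0.644%, with a median of -0.05 and 10 at an unadjusted p under 0.05. Of 19 regulators of respiratory chain genes 0 changed (6 at an unadjusted p under 0.05), with a median of 0.08, and of 9 carriers of proton leak and ATP export 0 changed (1 at an unadjusted p under 0.05), with a median of -0.09.

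Markers of other cell types also differed between the genotypes in their medians, though 0 of them changed by adjusted p. Their counts at an unadjusted p under 0.05 (limma) are to be read against 16.5% of all probe sets tested. All 7 tested neutrophil markers were above 0, with a median of 0.56, 4 at an unadjusted p under 0.05, and summed signals of 4504 to 6864 in wild type and 5983 to 10657 in KO. In the first deposit block the sums were 6864 on wild-type replicate 1 and 5983 and 6783 on KO replicates 1 and 2. In the second block they were 4504 and 4707 on wild-type and 8721 and 10657 on KO arrays. All 7 fibroblast markers were below 0, with a median of -0.33, 2 at an unadjusted p under 0.05, and sums of 56557 to 63638 in wild type and 35987 to 58860.3 in KO. The lowest fibroblast sum was that of KO replicate 1, while KO replicates 2, 3 and 4 gave 58860.3, 52675 and 55693. Of 5 endothelial markers 4 were below 0, with a median of -0.30, 3 at an unadjusted p under 0.05, and sums of 7590.5 to 9497 in wild type and 6929.7 to 7498 in KO. The 4 white adipocyte markers had a median of -0.21, with Lep and Retn below 0, Agt and Adipoq above, and 2 at an unadjusted p under 0.05. The macrophage markers had a median of 0.07 (7 tested, 1 at such a p) and the erythroid markers -0.06 (2 tested, 0). Their part in the values of the assembly factors, ribosomal proteins and subunits was not tested.

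Coa3, which acts early in building complex IV around the subunit Cox1, gave 6582, 5253 and 5012 in wild type and 4043, 3912, 3419 and 3418 in KO. Every KO array was below every wild-type array. The means were 5615 ± 845 (SD, n = 3) in wild type and 3698 ± 327 (SD, n = 4) in KO, so that Coa3 fell by 0.59 ± 0.12 on the log2 scale (SE), 1.51-fold lower, with an adjusted p of 0.0446 (limma). Its second probe set read -0.66 with an adjusted p of 0.0888.

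Coa7, another assembly factor of complex IV, gave 1848, 1416 and 1227 in wild type and 896, 880.2, 807 and 926 in KO. The KO arrays lay close together and below all wild-type arrays. The means were 1497 ± 318 (SD, n = 3) in wild type and 877 ± 50.6 (SD, n = 4) in KO, so that Coa7 fell by 0.73 ± 0.14 (SE), 1.66-fold lower, with an adjusted p of 0.0377 (limma), while its second probe set read 0.19 with an adjusted p of 0.721.

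Mrpl55, a protein of the large subunit of the mitochondrial ribosome, gave 2849, 2670.3 and 2496 in wild type and 1671, 1800.5, 1666 and 1766 in KO, again without overlap. The means were 2672 ± 177 (SD, n = 3) in wild type and 1726 ± 67.9 (SD, n = 4) in KO, so that Mrpl55 fell by 0.62 ± 0.10 (SE), 1.54-fold lower, with an adjusted p of 0.0228 (limma). All 3 calls were lost, with the direction kept, when any array other than KO replicate 2 was left out, and without KO replicate 2 the adjusted p was 0.0182 for Coa3, 0.0199 for Coa7 and 0.00626 for Mrpl55. In that fit 6 of the 44 assembly factors fell, where 7.35% of all probe sets tested changed in either direction. All 3 calls were also lost with scaling to the array median or without the variance trend.

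The genes next in line did not pass. Atpif1, the inhibitor that stops ATP synthase from running backwards, gave 1902, 1326 and 1737 in wild type and 851, 1456, 944 and 954 in KO. KO replicate 2 lay within the wild-type range and the other 3 KO arrays below it. The difference was -0.65 ± 0.19 (SE, adjusted p = 0.114), and -0.82 without KO replicate 2 (adjusted p = 0.00981), while its other probe sets read -0.27 and -0.12 in the fit with all arrays. Atp5s, an ATP synthase coupling factor, gave 977, 896 and 1108 in wild type and 605, 829.5, 710.5 and 568 in KO, all KO arrays being lower, with a difference of -0.54 ± 0.15 (SE, adjusted p = 0.105, and 0.0219 without KO replicate 2).

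Esrrg, an oestrogen-related receptor that activates respiratory chain genes, had means of 1306 ± 145 (SD, n = 3) in wild type and 908 ± 141 (SD, n = 4) in KO and a difference of -0.52 ± 0.15 (SE, adjusted p = 0.108, and 0.0492 without KO replicate 2), while its other probe sets read -0.10 and -0.22 (adjusted p = 0.808 and 0.701). Yy1, whose motif was searched above, had means of 2281 ± 129 (SD, n = 3) in wild type and 2909.6 ± 252 (SD, n = 4) in KO and a difference of 0.34 ± 0.11 (SE, adjusted p = 0.139). Its other tested probe sets read 0.32, 0.45 and 0.33. Ucp3, a relative of Ucp1, had means of 2251 ± 429 (SD, n = 3) in wild type and 1718 ± 749 (SD, n = 4) in KO and a difference of -0.45 ± 0.26 (SE, adjusted p = 0.42). Without KO replicate 2 it was -0.72 with an adjusted p of 0.0238. Another probe set of Ucp3 read -0.42 in the fit with all arrays. Slc25a4, a carrier that exchanges ADP for ATP across the inner membrane, had a difference of -0.32 ± 0.11 (SE, adjusted p = 0.19), and the ribosomal protein Mrps2 one of -0.42 ± 0.11 (SE, adjusted p = 0.0942). Other tested probe sets read -0.36 and -0.46 for Slc25a4 and -0.38 for Mrps2. The 1 transcript of the mitochondrial genome that was measured, mt-Nd5, which encodes a proton-pumping subunit of complex I, gave 26110.1, 23736 and 28406 in wild type and 26042, 24423, 27014 and 32661 in KO, a difference of 0.07 ± 0.12 (SE, adjusted p = 0.822).

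**Figure D4:**
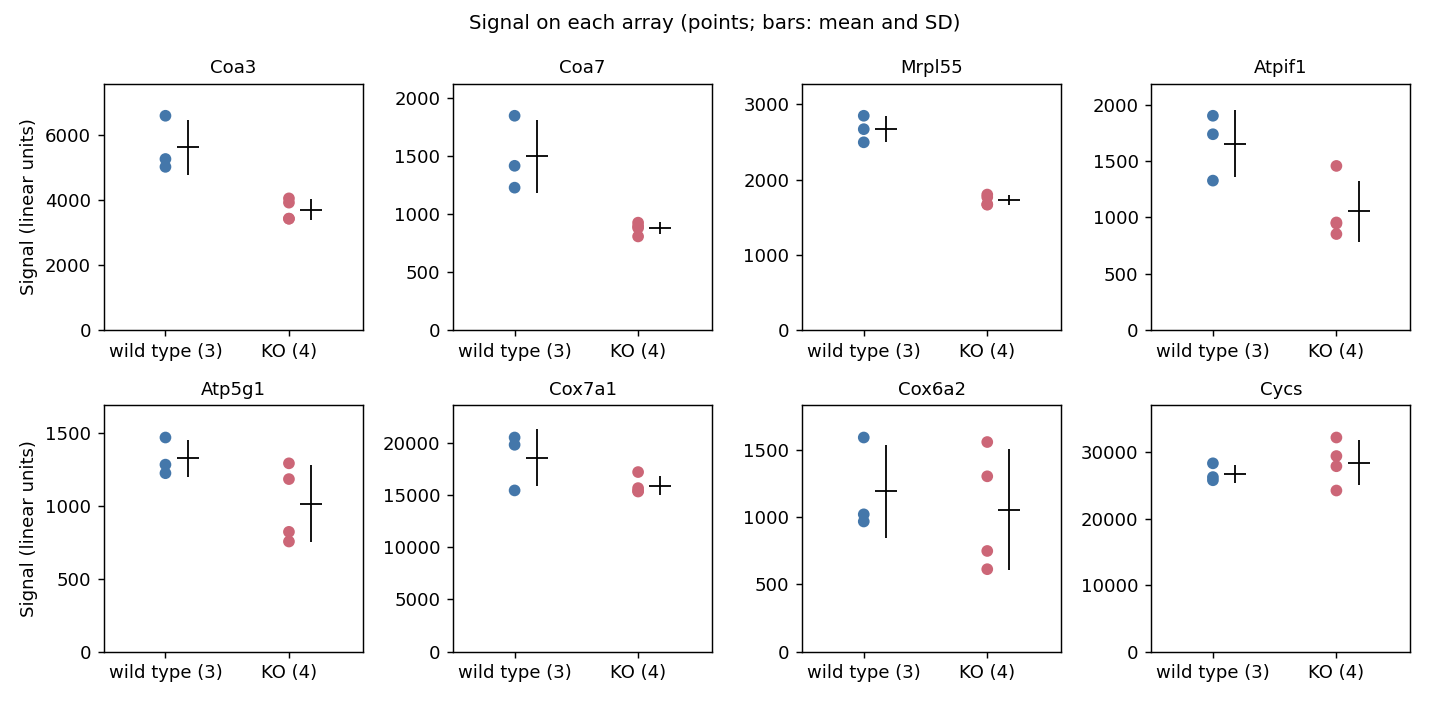
Signal in linear units on each of 3 wild-type and 4 KO arrays for 8 genes, with points for arrays and bars for the mean and SD. Coa3, Coa7 and Mrpl55 are lower on every KO array, Atpif1 is low on 3 of 4, Atp5g1 is low on KO replicates 3 and 4 alone, and Cox7a1, Cox6a2 and Cycs overlap between the genotypes.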

How the data were processed

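The authors deposited linear signal intensities for the probe sets of each array; the submitters' processing notes list GCOS 1.2, and no detection calls were used. The deposited scaling was kept, with a mean of 500.003 on each array after trimming 2% at each end. Since no label calls the replicates separate animals, a p-value covers only the spread between these samples, which may be technical.

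From the 45037 probe sets that are no controls, genes were named by those with 1 symbol, updated through a RefSeq table (GRCm38.p6). An offset of 30.6 (the 20th percentile of intensities) was added before taking log2, which understates differences of dim probe sets. Probe sets under the 40th percentile of mean log2 value were left out, which kept 27022, among them all 57 subunits measured. The 4 KO and 3 wild-type arrays were compared with limma 3.58.1 in R 4.3.3 (mean-variance trend, two-sided, Benjamini-Hochberg adjustment over all 27022, threshold 0.05, no block). The code was tested on simulated data.

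The subunits, lists, motifs, promoters and alternatives were chosen with earlier results of these data known. Named in full were the 3 subunits of each complex with the smallest p, the isoform pairs, Cycs and, of each other list, genes past the threshold and up to 2 with the smallest p; Cox7c, Ndufa10, Ndufab1, the second probe sets and the other subunits given with means or differences alone were added after their values were seen. CpG counts and printed promoters were likewise chosen after seeing values. Alternatives were other scalings, offsets, filters and variance models, array weights, the mean of a gene's probe sets, the replicate number as a block, the deposit block and leaving out each array.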

Additional observations from a re-analysis of the deposited data

Results flagged for a closer look

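Atpif1, the inhibitor of ATP synthase, gave a signal of 1456 on the array of KO replicate 2, while the other 3 KO arrays lay between 851 and 954. The gap to the nearest KO array was 0.83 of the range of the KO group, just past Dixon's limit for 4 samples. Of 68 groups of 4 KO signals looked at in this way it was the only 1 past the limit, and chance alone passes it in about 1 group in 20. The same array stood apart over all probe sets, as given with the array checks.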

How the results depend on the processing

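The count of 0 changed subunits held under every alternative run but 1. With the replicate number as a block, over the 3 numbers that both genotypes have and so without KO replicate 2, 1 changed (Atp5g1, -0.53, adjusted p = 0.0386). So did 8 assembly factors, 3 of the further respiratory chain and ATP synthase genes (Atpif1 and Atp5s among them) and 2 carriers, where 8.04% of all probe sets tested changed. Deviations of same-numbered arrays correlated weakly, at 0.057, 0.149 and 0.105 for replicates 1, 3 and 4, each highest with its own number. Those of differently numbered KO and wild-type arrays correlated at -0.145 to 0.040. Whether the numbers pair the samples was not tested.

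The deposit block moved the summary values. In the second block alone the median of the subunits was 0.184, and the means were 0.127 for complex I, 0.189 for complex III, 0.153 for complex IV and 0.109 for ATP synthase. In the first block, whose 1 wild-type array leaves no spread within wild type, so that only values are given, the median was -0.126 and the means were -0.172, -0.128, -0.128, -0.098 and -0.13 for complexes I, II, III, IV and ATP synthase. In the second block 1 assembly factor, 1 carrier and 0 mitochondrial ribosomal proteins changed.

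The changed assembly factors were 0 with array-median scaling, without the filter, without the variance trend or with probe sets averaged, and the changed ribosomal proteins 0 with array-median scaling or without the trend. Array weights gave 2 of the further respiratory chain and ATP synthase genes, the inhibitor Atpif1 and the coupling factor Atp5s. Leaving out 1 array at a time gave 0 to 6 assembly factors, 0 to 1 ribosomal proteins, 0 to 2 of the further genes (Atpif1 and Atp5s), 0 to 1 carriers and 0 to 1 regulators, the high counts without KO replicate 2 except for the ribosomal proteins, where only that array could be left out with the count kept.

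Small differences changed sign. Quantile normalization gave -0.02 for Cox7a2, -0.06 for Cox8b, -0.02 for Cyc1, -0.03 for Sdhb and -0.07 for Sdhd, averaging probe sets gave 0.03 for Ndufs8, and the second block gave 0.01 for Atp5g3. Leaving out 1 array at a time gave -0.07 to 0.06 for Cox8b, -0.02 to 0.14 for Sdhb, -0.04 to 0.09 for Sdhd, -0.01 to 0.15 for Cox6a1, -0.02 to 0.14 for Cox7a2, -0.05 to 0.14 for Cyc1, -0.02 to 0.13 for Uqcrb and -0.01 to 0.14 for mt-Nd5. The causes were not tested.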
